A study of Mus musculus with 69 samples.

Results

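Levels of 10 neuropeptide and neurotrophin genes were followed in mouse hippocampus after activation or inhibition of the innate immune receptor TLR7, a sensor of single-stranded RNA in endosomes. The genes were taken by symbol: the peptide precursors Npy, Sst, Cck, Penk, Pdyn, Tac1 and Vip, the somatostatin receptor gene Sstr4, the neurotrophin gene Bdnf and the neuronal pentraxin gene Nptx2. They are 10 of 54532 genes in the agonist table and 10 of 54429 in the inhibitor table, and all 10 had enough counts to be tested in both. Npy was also followed in cultured microglia, where it is 1 of 54532 genes and was included because its level differs by Tlr7 genotype.

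In the agonist experiment, aged wild-type mice received gardiquimod, a small-molecule TLR7 agonist, or saline. Each of the 4 groups had 7 libraries. Males were 12.12 months old and females 9.60 months old, so sex and age cannot be told apart there. In the inhibitor experiment, all mice carried the genotype PSUK+, and received a TLR7 inhibitor or a control. There were 6 inhibitor-treated and 3 control males, and 5 inhibitor-treated and 3 control females. Ages were 5.50, 6.06 or 6.85 months, with 1 age of 5.50 given without a unit; 5 of 6 inhibitor-treated males and all 3 control males were 5.50 months old, and so were 1 of 5 inhibitor-treated females and 2 of 3 control females. The labels neither describe PSUK further nor name the inhibitor. Microglia were primary cultures from TLR7:-/- (KO) or wild-type (WT) mice of postnatal d1-3, treated with myelin or DMSO, with 3 libraries for each sex, genotype and treatment. The labels describe the RNA of every library as nuclear RNA isolated from microglia, while the tissue of the 45 mouse libraries of the first 2 experiments is given as hippocampus. Their levels of Cck, Sst and interneuron markers were those of neuron-containing tissue: all 21 interneuron markers had counts, summing to 925 to 1710 CPM, a gene's counts scaled to a fixed library total. The labels do not say which libraries come from separate animals or cultures, so p-values measure the spread between the libraries.

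Neuropeptides are made as longer precursors, cut in dense-core vesicles and released mainly during strong or repeated firing. In the hippocampus, Npy, Sst, Cck and Vip mark inhibitory interneurons, and Cck is also made by pyramidal cells, while Pdyn and Penk are prominent in the granule cells of the dentate gyrus. Bdnf and Nptx2 are induced by neuronal activity, and transcription of Sst, Vip, Penk and Bdnf is classically driven through cAMP response elements.

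That element could be looked for in the promoters. RefSeq promoters of build GRCm38.p6 were at hand for 8 of the 10 genes, 15 promoters in all with 7 of them for Bdnf and 2 for Pdyn. None was at hand for Penk or Nptx2, so these were not searched. The 250 bases before each start were searched on both strands. The full palindrome TGACGTCA was found in 508 of 32851 promoters (1.55%), and among the 8 genes searched in Sst alone. Its 5-base core TGACG, which reads CGTCA on the other strand and also lies inside the palindrome, was found in 5836 promoters (17.8%). Sst, Vip, Cck, Tac1 and 1 Bdnf promoter held it, and none of the promoters of Npy, Sstr4 and Pdyn did. The sequences below give 30 bases of 6 promoters, with the match in capitals, to show how the peptide genes differ at this element. Sst was at chr16:23890874-23890903 on the minus strand, Vip at chr10:5639128-5639157 on the plus strand, Cck at chr9:121495723-121495752 on the minus strand, Tac1 at chr6:7555007-7555036 on the plus strand, Bdnf at chr2:109692390-109692419 on the plus strand and Npy, which has no match, at chr6:49822651-49822680 on the plus strand.
Sst: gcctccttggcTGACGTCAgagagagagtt
Vip: gatcactactgTGACGtctttcggggagcc
Cck: ctgctggactgCGTCAgcactgggtaaaca
Tac1: ctctacaggctCGTCAcgcctgagataaat
Bdnf: atgacagctcaCGTCAaggcagcgtggagc
Npy: ctgcccccgaggcccctcctgccgcgacaa
The Sst palindrome began 48 bases before the start. The core began 79 bases before the start in Vip, 47 in Cck, 43 and 197 in Tac1 and 35 in Bdnf. A match is a stretch of letters and not a measured binding site.

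Libraries held 14332532 to 23477906 counts in the agonist experiment, 14377831 to 21033158 in the inhibitor experiment and 15277642 to 21275491 in the microglia experiment. Reads started near the 3′ end of each transcript, so levels are given as CPM with no division by length. In microglia, Tlr7 itself measured 1.20 to 2.68 CPM in KO libraries, against 166 to 202 CPM in WT libraries. A pair of measures varied widely between hippocampal libraries and are set beside the results: the share of counts from mitochondrial genes, 5.18% to 15.3% in the agonist experiment and 3.31% to 15.7% in the inhibitor experiment, and the summed level of 9 choroid plexus markers, 41.6 to 6302 CPM. In bulk tissue, fewer cells of a type and less RNA per cell cannot be told apart.

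Among the 10 genes, Cck was the most abundant and Sst came next. Over the 28 agonist libraries Cck, whose peptide cholecystokinin modulates inhibitory synapses, measured 201 to 376 CPM with a median of 285. Sst, which encodes somatostatin, measured 97.9 to 217 CPM with a median of 141. The ranges of these 2 genes touched only at their ends, and both lay above those of the other 8 genes. Bdnf, encoding brain-derived neurotrophic factor, had a median of 30.5 CPM (18.6 to 53.3), and Npy, encoding neuropeptide Y, one of 25.8 CPM (19.1 to 41.1). Medians were 17.7 CPM for the enkephalin precursor Penk, 16.2 for Vip, 15.3 for Sstr4, 15.1 for Nptx2, 12.2 for the dynorphin precursor Pdyn and 11.7 for the tachykinin precursor Tac1. The ranges of these 6 neighbours overlapped, so their order is not resolved beyond the spread between libraries. In the inhibitor experiment Cck (median 265 CPM) and Sst (118 CPM) again came first. All 10 genes are annotated as protein coding, with positions given on GRCm38 as in the agonist table; Cck lies at chr9:121489824-121495694, Bdnf at chr2:109674700-109727007 and Nptx2 at chr5:144545902-144557478.

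**Figure D1:**
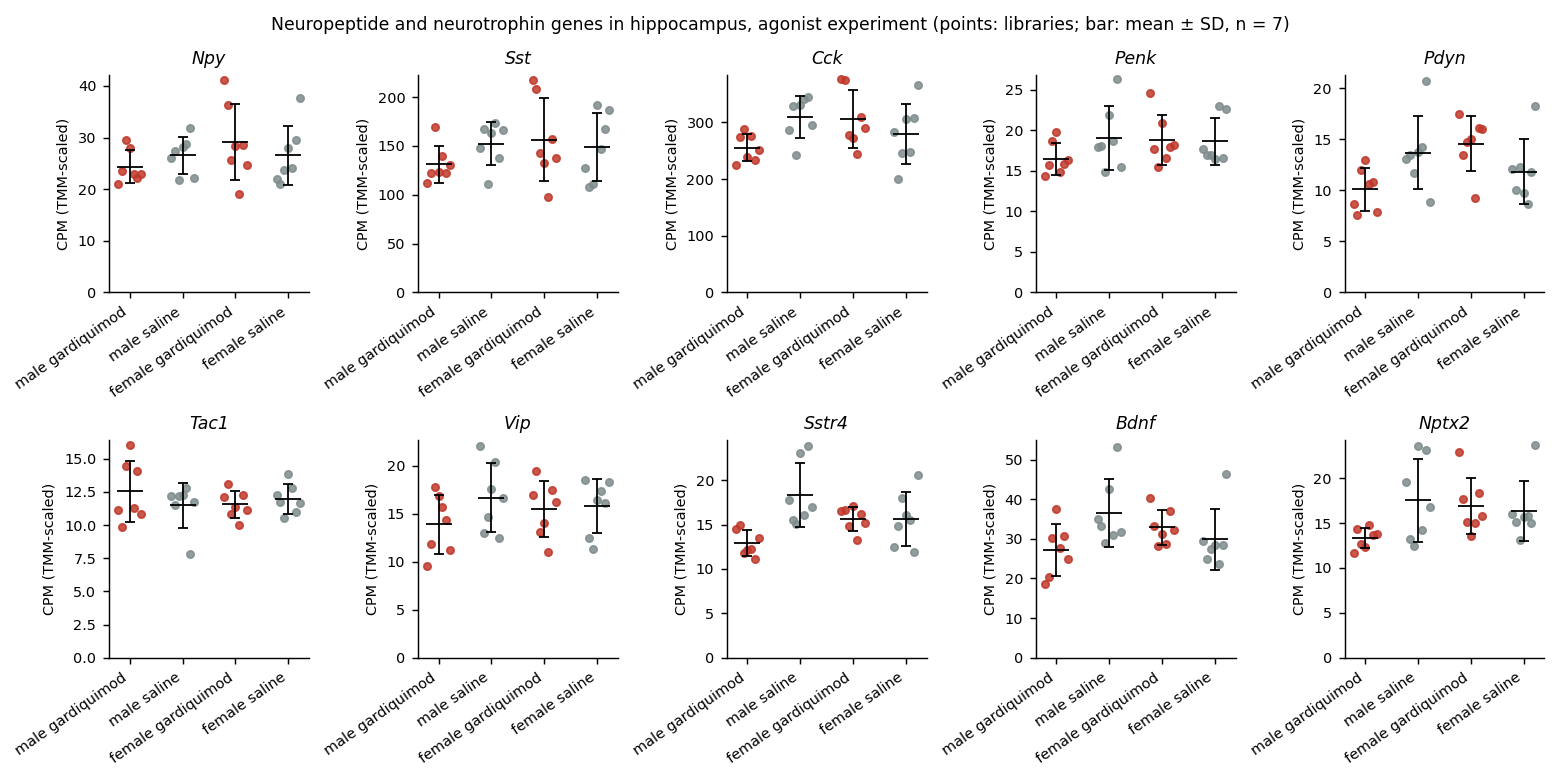
Each panel shows 1 gene in the agonist experiment: TMM-scaled CPM on the y axis from 0, and on the x axis male gardiquimod, male saline, female gardiquimod and female saline libraries (points), with the mean ± SD of 7 libraries. Sstr4 is the gene whose male gardiquimod points (11.1 to 14.98 CPM) all lie under the male saline points (15.1 to 23.9 CPM).

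Gardiquimod in males was followed by a lower level of the receptor gene Sstr4, and no other of the 10 genes passed the test. Sstr4, one of the G protein-coupled receptors for somatostatin and prominent in hippocampal neurons (ENSMUSG00000037014, chr2:148395344-148396767, plus strand), measured from 11.1 to 14.98 CPM (median 12.3) in gardiquimod males, against 15.1 to 23.9 CPM (median 17.02) in saline males. All 7 gardiquimod libraries were below all 7 saline libraries. The means were 12.9 ± 1.45 CPM in gardiquimod males and 18.4 ± 3.64 CPM in saline males (SD, n = 7 each). The gene fell by 0.51 ± 0.11 on the log2 scale (SE; 95% interval −0.74 to −0.29; adjusted p = 0.0369, edgeR's quasi-likelihood test with Benjamini-Hochberg adjustment over 17218 genes). Of all genes tested, 0.221% passed in either direction and 0.0523% were lower, and 0.0697% had groups that did not overlap with gardiquimod lower. The call rested on single libraries: the edgeR adjusted p was above 0.05 in 7 of the 28 fits that left out 1 library, all from the male groups, to at most 0.132 without saline replicate 6. It was also lost when the fit held the 2 male groups alone (−0.51, edgeR adjusted p = 0.0688).

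The other peptide precursors had smaller differences, and none passed. Pdyn measured from 7.61 to 13.0 CPM (median 10.7) in gardiquimod males, against 8.89 to 20.7 CPM (median 13.4) in saline males, a log2 difference of −0.44 ± 0.17 (edgeR adjusted p = 0.198). Cck measured from 226 to 289 CPM (median 251) in gardiquimod males, against 242 to 344 CPM (median 329) in saline males, a log2 difference of −0.28 ± 0.11 (edgeR adjusted p = 0.198). In both genes the groups overlapped, although the median was lower with gardiquimod. Log2 differences were −0.26 for Vip, which encodes vasoactive intestinal peptide, −0.21 for Penk and for Sst, −0.13 for Npy and +0.13 for Tac1.

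The activity-induced genes showed the same sign without passing. Bdnf measured from 18.6 to 37.5 CPM (median 27.7) in gardiquimod males, against 28.9 to 53.3 CPM (median 33.3) in saline males, a log2 difference of −0.43 ± 0.16 (edgeR adjusted p = 0.189). Nptx2, a secreted pentraxin that gathers AMPA receptors at excitatory synapses on interneurons, measured from 11.7 to 14.7 CPM (median 13.7) in gardiquimod males, against 12.4 to 23.6 CPM (median 16.7) in saline males, a log2 difference of −0.40 ± 0.14 (edgeR adjusted p = 0.165). Gardiquimod libraries of Nptx2 lay within a narrow range that overlapped the lower saline libraries. In all, 9 of the 10 genes had a negative log2 difference in males, with a median of −0.27, against −0.01 over all genes tested. An unadjusted p under 0.05 was reached by 5 of the 10 genes and by 15.8% of all genes.

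Other measures moved with gardiquimod in males. The summed choroid plexus markers measured 1215 to 5236 CPM (median 3045) in gardiquimod males, against 163 to 3979 CPM (median 206) in saline males, and all 9 were positive with none passing. The mitochondrial share was 8.12% to 11.3% (median 10.8) in gardiquimod males, against 6.31% to 11.8% (median 7.92) in saline males. With the level of the choroid plexus gene Ttr as a covariate, the Sstr4 difference was −0.38 (edgeR adjusted p = 0.354). With the mitochondrial share as a covariate it was −0.40 (edgeR adjusted p = 0.204), and with a sum of striatal markers, which add up to 170 to 236 CPM in gardiquimod males and 156 to 235 CPM in saline males, −0.39 (edgeR adjusted p = 0.198). The part of these measures in the result was not tested further. The summed interneuron markers ranged over 1011 to 1183 CPM in gardiquimod males, within the 935 to 1215 CPM of saline males.

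In females no gene of the 10 passed, and 0.0232% of all genes did (edgeR). None had an unadjusted p under 0.05 either, against 6.06% of all genes, and DESeq2 and limma-voom also called none. Sstr4 measured from 13.2 to 17.1 CPM (median 16.2) in gardiquimod females, against 11.9 to 20.6 CPM (median 15.5) in saline females. The groups overlapped, and the log2 difference was 0.01 with a 95% interval of −0.22 to 0.23. Pdyn measured from 9.26 to 17.5 CPM (median 15) in gardiquimod females, against 8.62 to 18.3 CPM (median 11.8) in saline females, a log2 difference of +0.30 ± 0.16 (edgeR adjusted p = 0.799). Log2 differences were positive for 8 of the 10 genes, with a median of 0.06.

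The test of the difference between the sexes did not pass for any of the 10 genes, and 0.00581% of all genes passed it. For Sstr4 the female response exceeded the male one by 0.52 ± 0.16 on the log2 scale (edgeR adjusted p = 0.145), and for Pdyn by 0.74 ± 0.23 (edgeR adjusted p = 0.165). This difference was positive for 9 of the 10 genes, with a median of 0.35; 5 genes had an unadjusted p under 0.05, against 16.2% of all genes, and DESeq2 and limma-voom called none. Averaged over both sexes, Sstr4 had a difference of −0.25 ± 0.08 (edgeR adjusted p = 0.433) and none of the 10 genes passed, against 0.215% of all genes. It was the only one of the 10 with an unadjusted p under 0.05, a level reached by 6.48% of all genes. Between saline females and saline males none of the 10 passed, against 0.43% of all genes; Sstr4 was again the single gene with an unadjusted p under 0.05, with a log2 difference of −0.24 ± 0.11 (edgeR adjusted p = 0.58). DESeq2 and limma-voom called none of the 10 in the mean of both sexes or between the saline groups.

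Around these genes in the pathway, 2 of 19 activity-regulated genes tested fell in gardiquimod males, where 0.0523% of all genes were lower. Homer1, which encodes a postsynaptic scaffold with an activity-induced short form, averaged 62.6 CPM in gardiquimod males and 81.4 CPM in saline males, a log2 difference of −0.38 ± 0.07 (edgeR adjusted p = 0.00815). Inhba, which encodes the activin beta A subunit, averaged 6.02 CPM in gardiquimod males and 8.67 CPM in saline males, a log2 difference of −0.53 ± 0.12 (edgeR adjusted p = 0.0448). These calls depended on the fit. With Ttr as a covariate 3 genes of the whole table passed in males, all 3 higher, so neither Homer1 nor Inhba did. With the 2 male groups alone 19 genes passed, 18 of them higher, so Homer1 and Inhba did not both pass. No gene passed among 18 other neuropeptide precursors, 29 neuropeptide receptors, 16 genes of peptide processing and dense-core vesicles, 10 neurotrophins and their receptors, and 8 pentraxin and AMPA receptor genes. At an unadjusted p under 0.05 there were 2 of 18 precursors, 5 of 29 receptors, 10 of 16 processing genes, 4 of 10 neurotrophin genes and 5 of 8 pentraxin and AMPA receptor genes, against 15.8% of all genes. Named by smallest p, these included Cadps (−0.24) and Ptprn2 (−0.22) of the dense-core vesicle, Nptx1 (−0.37), the AMPA receptor subunit gene Gria3 (−0.25), the NPY receptor gene Npy2r (−0.48, edgeR adjusted p = 0.208) and Vgf (−0.28, edgeR adjusted p = 0.201).

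**Figure D2:**
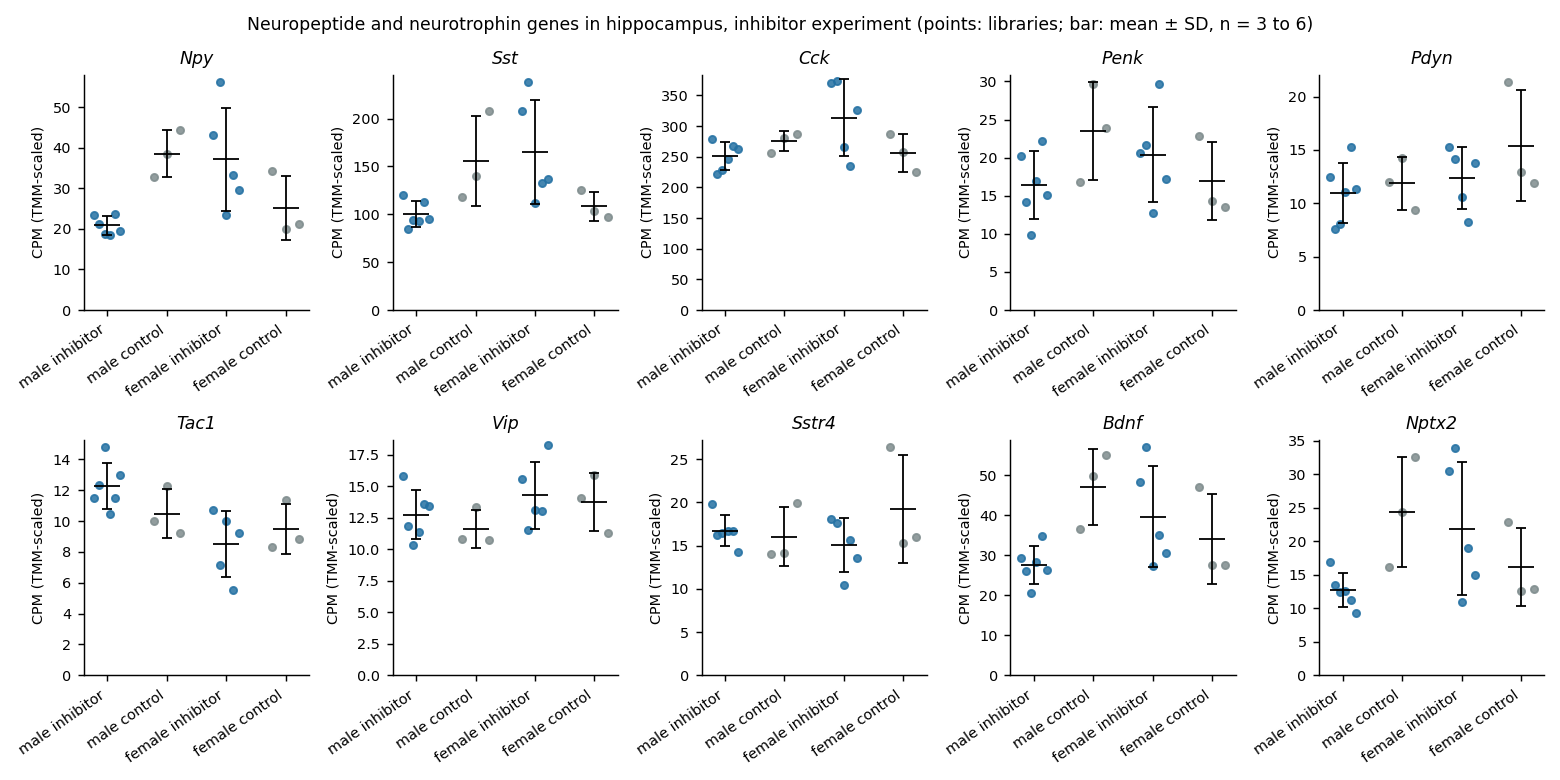
Each panel shows 1 gene in the inhibitor experiment: TMM-scaled CPM on the y axis from 0, and on the x axis male inhibitor, male control, female inhibitor and female control libraries (points), with the mean ± SD of 6, 3, 5 and 3 libraries. For Npy the male inhibitor points (18.6 to 23.7 CPM) all lie under the male control points (32.7 to 44.3 CPM), while the female groups overlap.

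Some libraries of the inhibitor experiment stood apart. The summed level of 8 astrocyte markers was 5189, 3133, 9429, 6679 and 8562 CPM in the 5 inhibitor-treated females, against 7080, 10224 and 10597 CPM in the 3 control females. It was 9944 to 12317 CPM in inhibitor-treated males, against 7981, 8620 and 4261 CPM in control males. The 3 lowest libraries, inhibitor-treated females 1 and 2 and control male 3, also had the lowest mitochondrial shares, at 4.62%, 3.49% and 3.31%. Xist, expected in females alone, measured 11.1 and 2.9 CPM in inhibitor-treated males 1 and 2, and at most 0.342 CPM in the other males. The inhibitor results for Npy, Sst, Nptx2, Bdnf, Sstr4 and Penk, the called pathway genes and the pairs of genes are also given below without the 3 libraries of lowest astrocyte markers.

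With the inhibitor, Npy and Sst differed between the sexes in their response: the level was lower in inhibitor-treated males than in control males and higher in inhibitor-treated females than in control females. Npy, which marks several interneuron classes and whose peptide dampens excitatory transmission (ENSMUSG00000029819, chr6:49822710-49829507, plus strand), measured 23.4, 21.2, 18.9, 18.6, 23.7 and 19.4 CPM in the 6 inhibitor-treated males, against 32.7, 38.4 and 44.3 CPM in the 3 control males. In females it measured 43.1, 56.1, 23.5, 33.4 and 29.6 CPM with the inhibitor, against 34.3, 19.9 and 21.2 CPM in controls. The male groups did not overlap, and the female groups did. The log2 difference was −0.88 ± 0.21 in males (edgeR adjusted p = 0.127) and +0.57 ± 0.23 in females (edgeR adjusted p = 0.354). Neither passed alone. The difference between them, female minus male, was +1.45 ± 0.31 (95% interval 0.79 to 2.11; edgeR adjusted p = 0.0281).

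Sst, the somatostatin gene of dendrite-targeting interneurons (ENSMUSG00000004366, chr16:23889573-23890958, minus strand), measured 85.04 to 121 CPM (median 94.2) in inhibitor-treated males, against 118, 140.01 and 208 CPM in control males. In females it measured 207, 238, 112, 133 and 137 CPM with the inhibitor, against 125, 103 and 96.7 CPM in controls. Groups overlapped in both sexes. The log2 difference was −0.63 ± 0.21 in males (edgeR adjusted p = 0.205) and +0.61 ± 0.23 in females (edgeR adjusted p = 0.316). Female minus male it was +1.24 ± 0.31 (95% interval 0.59 to 1.89; edgeR adjusted p = 0.042). Npy and Sst were the 2 genes of the 10 that passed this test, against 2.41% of all genes in either direction and 0.73% in theirs.

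Both calls depended on which libraries were in the fit, those that stood apart and others. Without the 3 libraries of lowest astrocyte markers, the response difference was +0.98 for Npy (edgeR adjusted p = 0.13) and +0.61 for Sst (edgeR adjusted p = 0.237), with 0.19% of all genes passing. With the astrocyte sum as a covariate it was +0.56 for Npy (edgeR adjusted p = 0.0936) and +0.30 for Sst (edgeR adjusted p = 0.325). Without the 2 Xist-bearing males the values were as large, +1.52 for Npy (edgeR adjusted p = 0.0707) and +1.29 for Sst (edgeR adjusted p = 0.0855), from 2 libraries fewer. Among mice of 5.50 months alone the values were +1.57 for Npy and +1.51 for Sst. That fit held 1 inhibitor-treated female, library 1, which is also among the 3 libraries of lowest astrocyte markers. No p-value is therefore given for it. Leaving out 1 library at a time gave +1.25 to +1.74 for Npy, called in 9 of 17 fits, and +0.98 to +1.41 for Sst, called in 7 of 17. The Npy call was lost without control females 2 or 3, inhibitor-treated female 1, control males 2 or 3, or inhibitor-treated males 2, 3 or 6, and the Sst call also without inhibitor-treated female 2 or male 4. With the mitochondrial share as a covariate both were kept, at +1.02 for Npy (edgeR adjusted p = 0.000233) and +0.75 for Sst (edgeR adjusted p = 0.00096), where 7.27% of all genes passed.

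The activity-induced genes Bdnf and Nptx2 had response differences as large as Sst or nearly so, and did not pass. Nptx2 measured 9.33 to 16.96 CPM (median 12.5) in inhibitor-treated males, against 16.2, 24.4 and 32.6 CPM in control males. In females it measured 30.5, 33.9, 10.96, 19.1 and 15.04 CPM with the inhibitor, against 22.8, 12.6 and 12.9 CPM in controls. The 2 highest inhibitor-treated females were again libraries 1 and 2, and groups overlapped in both sexes. The response difference was +1.39 ± 0.44 (edgeR adjusted p = 0.0773).

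Bdnf measured 20.6 to 34.8 CPM (median 27.3) in inhibitor-treated males, against 36.5, 49.7 and 55.04 CPM in control males. In females it measured 48.2, 56.98, 27.3, 35.1 and 30.6 CPM with the inhibitor, against 47.02, 27.6 and 27.5 CPM in controls. All 3 control males lay above the inhibitor-treated males on this scale, and the female groups overlapped. The response difference was +0.99 ± 0.32 (edgeR adjusted p = 0.0845), and DESeq2 called it (adjusted p = 0.0394), as it did that of Nptx2 (adjusted p = 0.0301). Without the 3 libraries of lowest astrocyte markers the response difference was +0.60 for Nptx2 (edgeR adjusted p = 0.529) and +0.52 for Bdnf (edgeR adjusted p = 0.485).

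The remaining 6 genes differed less. Penk had a response difference of +0.78 (edgeR adjusted p = 0.196) and Cck one of +0.42 (edgeR adjusted p = 0.203). Sstr4, the gene that fell with gardiquimod in males, measured 14.2 to 19.8 CPM (median 16.6) in inhibitor-treated males, against 13.98 to 19.96 CPM (median 14.1) in control males. It measured 10.5 to 18.1 CPM (median 15.6) in inhibitor-treated females, against 15.3 to 26.4 CPM (median 16.02) in control females, and groups overlapped in both sexes. Its response difference was −0.41 (edgeR adjusted p = 0.346), and −1.10 with the astrocyte covariate (edgeR adjusted p = 0.00736), where it passed with 1.82% of all genes. Without the 3 libraries it was −0.77 (edgeR adjusted p = 0.267), and that of Penk +0.75 (edgeR adjusted p = 0.566). With all libraries the response difference was −0.38 for Tac1, −0.21 for Pdyn and −0.07 for Vip.

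Taken sex by sex, none of the 10 genes passed with the inhibitor in males, against 0.105% of all genes, or in females, against 0.0876% (edgeR). An unadjusted p under 0.05 was reached in males by 4 of the 10, Npy, Bdnf, Nptx2 and Sst, and in females by 2, Sst and Npy, against 17.6% of all genes in males and 11.6% in females. In males DESeq2 called 1, Npy (adjusted p = 0.0208), and limma-voom none. A fit of the 2 male groups alone called all 4: Npy at −0.90, Nptx2 at −0.96, Bdnf at −0.78 and Sst at −0.65, with 1.98% of all genes called and edgeR adjusted p from 0.00477 to 0.0496. Without the 3 libraries, which leaves 2 control males, that fit called Npy alone, at −0.77 (edgeR adjusted p = 0.0145), and the fit of all groups called none in either sex, with −0.77 for Npy in males (edgeR adjusted p = 0.281) and +0.21 in females. The median of the 10 log2 differences was −0.32 in males and 0.25 in females. In males, groups that did not overlap with the inhibitor lower, as for Npy, were seen for 6.13% of all genes; those of Bdnf were apart on TMM-scaled levels and overlapped on unscaled ones. Averaged over both sexes none passed, against 0.0117% of all genes, and none had an unadjusted p under 0.05. Between control females and control males none passed, against 0.0642%, and Npy alone had an unadjusted p under 0.05, at −0.62 ± 0.25 (edgeR adjusted p = 0.576). DESeq2 and limma-voom called none in females, in the mean of both sexes or between the control groups.

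**Figure D3:**
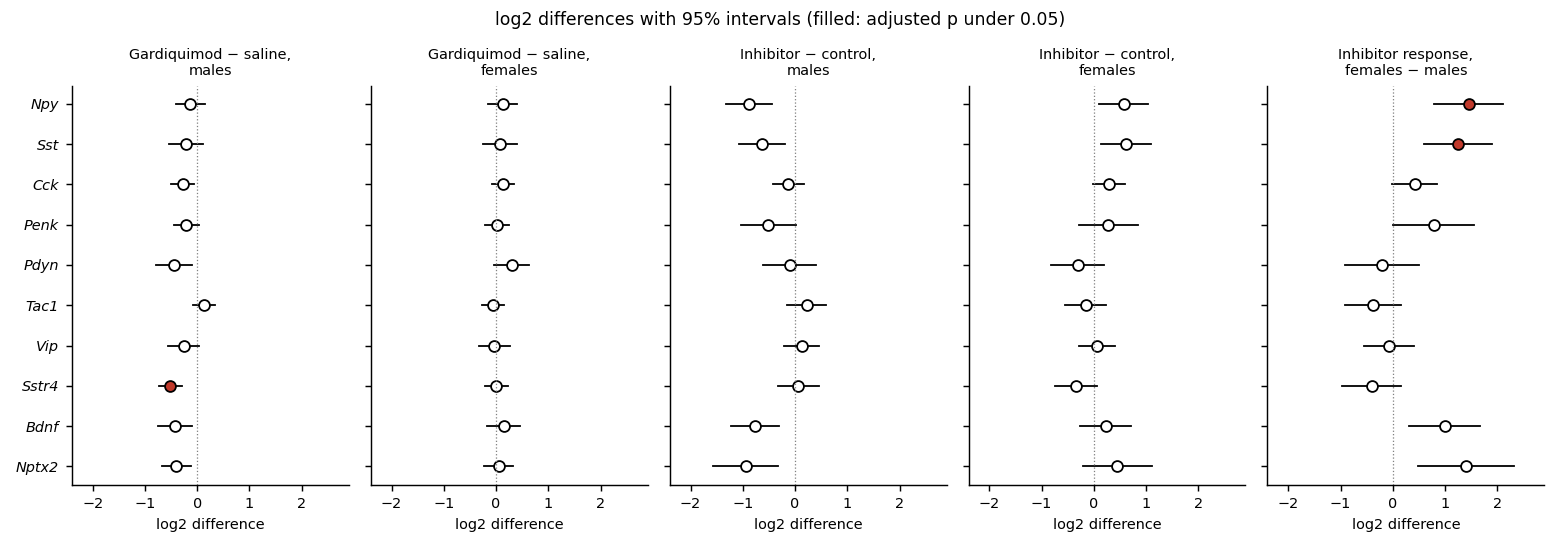
Points are log2 differences of the 10 genes (rows) with 95% intervals on the x axis, for gardiquimod minus saline and inhibitor minus control in each sex and for the inhibitor response of females minus males; filled points have an edgeR adjusted p under 0.05. Filled are Sstr4 at −0.51 with gardiquimod in males, and Npy at +1.45 and Sst at +1.24 in the response difference.

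Other genes of the pathways were set against the same test of the inhibitor response between sexes, which 2.41% of all genes passed. Vgf, a secreted precursor stored with neuropeptides, was the single gene of 15 other precursors to pass, at +1.67 ± 0.43 (edgeR adjusted p = 0.0477). Of 28 receptors, Tacr3, the neurokinin B receptor gene, passed at +1.41 (edgeR adjusted p = 0.0432) and Adcyap1r1, a receptor gene for the peptide PACAP, at −0.90 (edgeR adjusted p = 0.019). Of 10 neurotrophin genes, Ntrk2, which encodes the BDNF receptor TrkB and is also expressed by astrocytes, passed at −0.99 (edgeR adjusted p = 0.0378). Of 19 activity-regulated genes, Gadd45b passed at +1.11 (edgeR adjusted p = 0.0415), and 9 had an unadjusted p under 0.05, against 25.4% of all genes. No gene passed among 16 of peptide processing and 8 of pentraxins and AMPA receptors; Chga, a dense-core granule protein gene, came nearest at +1.41 (edgeR adjusted p = 0.0628). Without the 3 libraries of lowest astrocyte markers none of the 5 called genes passed: Vgf was at +0.73 (edgeR adjusted p = 0.347), Tacr3 at +1.03 (0.323), Adcyap1r1 at −0.72 (0.105), Ntrk2 at −0.70 (0.203) and Gadd45b at +0.91 (0.247). With the astrocyte sum as a covariate Adcyap1r1 passed, at −0.54 (edgeR adjusted p = 0.0374), and the other 4 did not.

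Cell type markers moved with these values in the same contrast. Of 21 interneuron markers none passed, 18 were positive and the median was +0.55; 11 had an unadjusted p under 0.05. All 8 astrocyte markers were negative, with a median of −0.89 and none passing, and all 9 choroid plexus markers were positive, with a median of +2.58 and none passing. Pan-neuronal markers had a median of +0.64. The summed interneuron markers measured 957 to 1167 CPM in inhibitor-treated males and 1091 to 1703 CPM in control males, and 925 to 1710 CPM in inhibitor-treated females and 1034 to 1344 CPM in control females. Beyond the covariate fits above, the part of these measures in the result was not tested.

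Levels of many of the 10 genes varied together across libraries within groups. Each gene's log2 CPM was taken as a deviation from its group mean, and 45 pairs were tested in each experiment by permutation within groups. In the agonist experiment 25 of the 45 pairs passed after Benjamini-Hochberg adjustment, all positive, and in the inhibitor experiment 14 did, all positive; 11 passed in both. Signs were positive for 41 of the 45 agonist pairs and 36 of the 45 inhibitor pairs. The median r was 0.444 over agonist pairs and 0.491 over inhibitor pairs, against −0.002 and 0.001 over all pairs of genes tested. The lowest r that passed was 0.388 among agonist libraries, a value reached by 8.94% of all gene pairs, and 0.716 among inhibitor libraries, reached by 5.31%. The counts moved with the setting: 12 agonist pairs passed without the 2 libraries farthest from the median of the first gene, and 28 inhibitor pairs without TMM scaling. Without the 3 inhibitor libraries of lowest astrocyte markers 14 pairs passed, over 14 libraries, and not all were the same pairs. Sst and Cck, Sst and Nptx2, Sstr4 and Bdnf, Cck and Bdnf, and Bdnf and Nptx2 no longer passed. Npy and Penk, Sst and Penk, Sst and Pdyn, Sstr4 and Penk, and Cck and Vip passed there but not over all 17. In that setting Npy and Sst had r = 0.783 and rho = 0.710 (permutation p = 0.00391, adjusted p = 0.0251). Npy and Sst, which share interneuron classes, had r = 0.810 and rho = 0.760 over 28 agonist libraries (permutation p = 2e-05, adjusted p = 0.00018; r = 0.762 without the 2 libraries farthest from the Npy median), and r = 0.879 and rho = 0.738 over 17 inhibitor libraries (permutation p = 0.00013, adjusted p = 0.00195; r = 0.857 without 2 libraries). Sst and Cck had the highest agonist value, r = 0.863 and rho = 0.824, and Npy and Bdnf the highest inhibitor value, r = 0.935 and rho = 0.902 (permutation p = 4e-05, adjusted p = 0.0009).

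Further pairs are given here as examples and were not chosen by rank. Pdyn and Bdnf had r = 0.807 and rho = 0.778 in the agonist experiment. In the inhibitor experiment they had r = 0.612 (permutation p = 0.0251, adjusted p = 0.0694) and rho = 0.659 (permutation adjusted p = 0.0405). The pair thus passed there by rank and not by r. Sstr4 and Nptx2 had r = 0.601 and rho = 0.477 in the agonist experiment (permutation p = 0.00379, adjusted p = 0.0107; r = 0.421 without 2 libraries), and r = 0.911 and rho = 0.848 in the inhibitor experiment (permutation p = 3e-05, adjusted p = 0.0009). Tac1 and Vip had r = 0.691 and rho = 0.678 in the agonist experiment (permutation p = 0.00021, adjusted p = 0.00118) but r = 0.350 and rho = 0.422 in the inhibitor experiment (permutation p = 0.258, adjusted p = 0.367). Tac1 passed with Sst (r = 0.388) and Vip alone among agonist libraries, and no pair with Tac1 or Vip passed among all inhibitor libraries. Without the 3 inhibitor libraries of lowest astrocyte markers Cck and Vip passed (r = 0.847, permutation adjusted p = 0.022). Tac1 gave the lowest value in each experiment, −0.35 with Sstr4 among agonist libraries and −0.56 with Penk among inhibitor libraries.

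**Figure D4:**
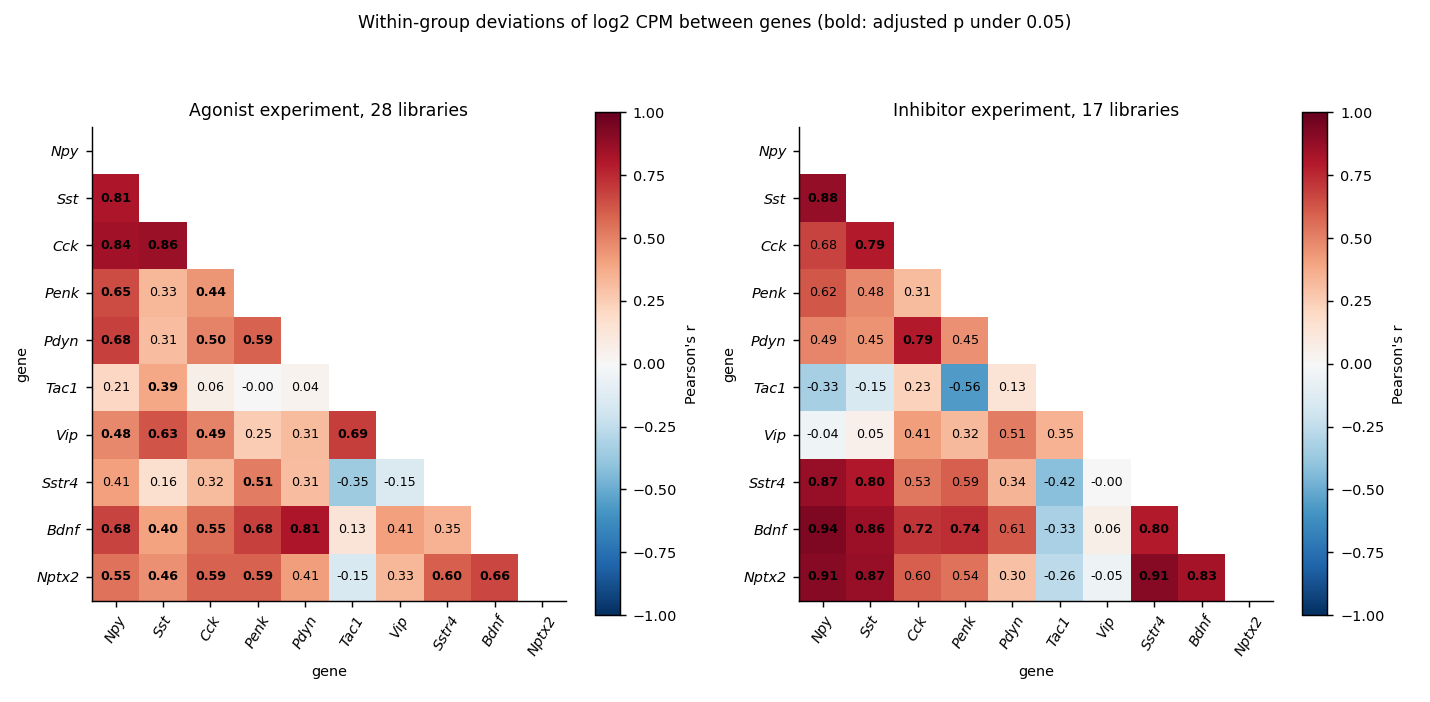
Colour and number give Pearson's r between within-group deviations of log2 CPM for each pair of the 10 genes (rows and columns), over 28 agonist libraries on the left and 17 inhibitor libraries on the right; bold marks an adjusted permutation p under 0.05. Npy, Sst, Bdnf and Nptx2 are positive with each other in both experiments, and Tac1 is near 0 or negative with most genes.

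Most of these deviations ran against the mitochondrial share and with the interneuron marker sum, which holds none of the 10 genes. Many also ran against the astrocyte marker sum, more closely among inhibitor libraries than among agonist libraries. Over agonist libraries r with that share was −0.87 for Cck (rho = −0.79, permutation p = 1e-05, the smallest the permutations can give, adjusted p = 0.00025), −0.81 for Npy (rho = −0.73) and −0.75 for Sst (rho = −0.62), and over inhibitor libraries it was −0.94 for Sst (rho = −0.83, permutation p = 8e-05, adjusted p = 0.00075), −0.90 for Npy and for Nptx2, −0.89 for Sstr4 and −0.88 for Bdnf. Without the 2 libraries farthest from the median, r was −0.81 for Cck among agonist libraries and −0.89 for Sst among inhibitor libraries. With that share Tac1 had r = −0.02 among agonist libraries, and among inhibitor libraries r was 0.36 for Tac1, −0.33 for Pdyn and 0.09 for Vip. With the interneuron sum, r over inhibitor libraries was 0.92 for Sst (rho = 0.82, permutation p = 9e-05, adjusted p = 0.00075) and 0.89 for Npy (rho = 0.87, permutation p = 7e-05, adjusted p = 0.00075), and over agonist libraries it was 0.74 for Sst (rho = 0.66), 0.73 for Cck (rho = 0.66) and 0.72 for Npy (rho = 0.74). With the astrocyte sum, r over inhibitor libraries was −0.91 for Sst (rho = −0.84) and −0.88 for Npy (rho = −0.85), and over agonist libraries −0.58 for Npy (rho = −0.45, permutation p = 0.00679, adjusted p = 0.0189) and −0.51 for Sst (rho = −0.38, permutation p = 0.0217, adjusted p = 0.0434). No other of the 10 genes passed with it among agonist libraries, with r of −0.33 for Cck, −0.25 for Penk and −0.04 for Sstr4. By rank neither Npy nor Sst passed there (permutation adjusted p = 0.0615 and 0.117). Their r was −0.41 and −0.30 without the 2 libraries farthest from the median. Without the 3 inhibitor libraries of lowest astrocyte markers, r for Npy was −0.92 with the mitochondrial share, 0.87 with the interneuron sum and −0.82 with the astrocyte sum. With the choroid plexus sum, r over agonist libraries was −0.65 for Nptx2 (permutation adjusted p = 0.0081), −0.59 for Penk, −0.50 for Npy and −0.48 for Sstr4 (adjusted p = 0.0428). With the striatal sum it was −0.58 for Nptx2, −0.51 for Sstr4 (permutation adjusted p = 0.0339) and −0.48 for Penk. The other genes did not pass with these sums, and none of the 10 did among inhibitor libraries. By rank, Nptx2 and Penk passed with the choroid plexus sum among agonist libraries (permutation adjusted p = 0.0305 and 0.0438). Npy (0.079) and Sstr4 (0.05) did not. With the striatal sum no gene passed by rank, with permutation adjusted p of 0.05 for Nptx2, 0.0863 for Sstr4 and 0.102 for Penk. The adjustment was over 50 relations in each experiment, and the part of these measures in the pairs above was not tested.

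The genes most like each of the 10, by r of within-group deviations over the 28 agonist libraries, are named here with their r over the 17 inhibitor libraries beside it. For Npy they were March5 (0.929), Thy1 (0.917) and Ube2e2 (0.916), and over inhibitor libraries their r was 0.849, 0.930 and 0.529. For Sst the first was Ap2s1 (0.916; 0.826 among inhibitor libraries), for Cck Stmn3 (0.927; 0.874), for Bdnf Adgrb3 (0.921; 0.794), for Nptx2 Dgkg (0.873; 0.846), for Pdyn Pip5k1a (0.880; 0.513) and for Penk Arl15 (0.810; 0.620). For Sstr4 they were Adcy9 (0.807; 0.928), Grin1 (0.782; 0.887), which encodes a subunit of NMDA receptors, and Evc2 (0.781; 0.838). For Tac1 the first was Rit2 (0.787; −0.28), and for Vip it was Fgf12 (0.880; 0.005), both with no such likeness among inhibitor libraries. These are descriptions over libraries that share tissue and depth.

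In cultured microglia Npy was higher in KO than in WT cells in every sex and treatment. With myelin it measured 56.9, 54.5 and 63.1 CPM in male KO microglia, against 22.03, 21.6 and 23.6 CPM in male WT microglia, and 60.3, 61.1 and 52.0 CPM in female KO microglia, against 25.3, 20.2 and 24.6 CPM in female WT microglia. With DMSO it measured 44.4, 41.2 and 45.9 CPM in male KO microglia, against 10.3, 8.92 and 12.4 CPM in male WT microglia, and 31.5, 33.5 and 34.9 CPM in female KO microglia, against 12.1, 10.96 and 11.97 CPM in female WT microglia. KO and WT libraries did not overlap in any of the 4 settings. The log2 difference was 1.377 in male myelin, 1.30 in female myelin, 2.05 in male DMSO and 1.51 in female DMSO cultures. Since Npy was included for its difference by genotype, these differences carry no test; groups were apart with KO higher for 10%, 8.46%, 9.05% and 10.9% of all genes in those 4 settings. Markers of other cells moved with genotype in males. With DMSO the 9 choroid plexus markers summed to 4.66 to 22.8 CPM in male KO microglia, against 136 to 244 CPM in male WT microglia, and the 10 pan-neuronal markers to 10.9 to 12.7 CPM in male KO, against 23.6 to 25.8 CPM in male WT. With myelin the choroid plexus sum was 6.02 to 15.3 CPM in male KO and 149 to 213 CPM in male WT, and the pan-neuronal sum 8.31 to 11.2 CPM in male KO and 18.8 to 20.4 CPM in male WT. In females these sums overlapped between genotypes, with a choroid plexus sum of 46.2 to 566 CPM in KO and 87.9 to 162 CPM in WT with DMSO. With the levels of Ttr and the oligodendrocyte precursor gene Pdgfra as covariates, the Npy difference was 1.35 in male myelin, 1.31 in female myelin, 2.01 in male DMSO and 1.49 in female DMSO cultures; the part of these cells in it was not tested further.

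**Figure D5:**
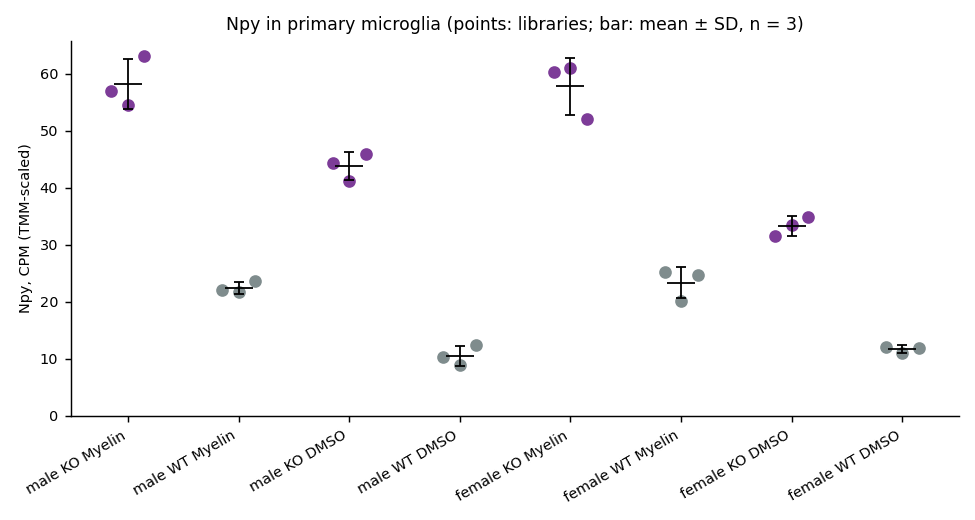
Points are TMM-scaled CPM of Npy (y axis, from 0) in each primary microglia library, and bars the mean ± SD of 3 libraries, for KO and WT cells of each sex and treatment along the x axis. KO libraries range from 31.5 to 63.1 CPM and WT libraries from 8.92 to 25.3 CPM.

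Myelin, which microglia take up by phagocytosis, was followed by a higher Npy level in every sex and genotype. In male WT microglia Npy averaged 22.4 ± 1.07 CPM with myelin and 10.5 ± 1.77 CPM with DMSO (SD, n = 3 each). In female WT microglia it averaged 23.4 ± 2.77 CPM with myelin and 11.7 ± 0.639 CPM with DMSO. All myelin libraries lay above the DMSO libraries of their own sex and genotype, as did those of 17.8% of all genes in male WT, 20% in female WT, 18.2% in male KO and 19.1% in female KO microglia. It rose by 1.09 ± 0.10 on the log2 scale in male WT (edgeR adjusted p = 4.42e-12) and 1.002 ± 0.10 in female WT microglia (edgeR adjusted p = 1.35e-11). In KO microglia it rose by 0.41 ± 0.08 in males (58.2 ± 4.41 CPM with myelin and 43.8 ± 2.41 CPM with DMSO; edgeR adjusted p = 1.86e-05) and by 0.80 ± 0.08 in females (57.8 ± 5.02 CPM with myelin and 33.3 ± 1.70 CPM with DMSO; edgeR adjusted p = 1.59e-11). Myelin changed 39.3% of all genes in male WT, 40.4% in female WT, 38.2% in male KO and 41.2% in female KO microglia, so a call in this contrast was common. These tests did not pair same-numbered libraries.

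Differences between these differences are made from the same KO and WT values for which Npy was included, so they are given without a test. The myelin response, KO minus WT, was −0.67 ± 0.13 in males and −0.21 ± 0.12 in females on the log2 scale (SE). The genotype difference, females minus males, was −0.54 ± 0.13 with DMSO and −0.07 ± 0.11 with myelin. With Ttr and Pdgfra as covariates the value with DMSO was −0.52. The choroid plexus sums above also differed by genotype in males, where they were lower in KO cells while Npy was higher. The 3 male KO cultures with DMSO, at 41.2 to 45.9 CPM, lay above the 3 female ones, at 31.5 to 34.9 CPM, and after myelin both sexes of KO cells lay between 52.0 and 63.1 CPM.

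By r of log2 CPM over the 24 microglia libraries, the genes most like Npy were E330009J07Rik (0.973), Saa3 (0.970), Col24a1 (0.970), Ecm1 (0.969) and Cd37 (0.962). This r includes the differences between groups.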

How the data were processed

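Per the labels' protocols, a microprep kit was used for RNA and the QuantSeq 3′ kit (FWD) for cDNA libraries. The authors deposited whole-number raw counts per gene in 1 table for each experiment. The submitters' processing notes name DESeq2 1.38.3 with the builds mm10 and GRCm38; an aligner or counter is not given in the sources used here. The inhibitor table lists gene symbols; the 10 symbols each matched 1 row.

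Each experiment was fitted separately with edgeR 4.0.16 in R 4.3.3: filterByExpr, TMM scaling and a robust quasi-likelihood fit of all groups, tested on simulated data first. Genes tested numbered 17218 (agonist), 17128 (inhibitor) and 14468 (microglia), with a biological coefficient of variation of 0.132, 0.179 and 0.0507. P-values were adjusted over all genes tested, and called means an adjusted p under 0.05. Gene levels are TMM-scaled CPM; marker sums, Tlr7, Xist and mitochondrial shares are unscaled. Whether groups overlap was read from unscaled CPM where a share of all genes is given. Standard errors come from the fitted log2 difference and its F statistic.

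All 10 genes and Npy in microglia are given in each comparison. From pathway lists, called genes were named by smallest p, up to 4 a list, or up to 2 where none was called. The genes and lists were chosen with earlier results of these data known. Same-numbered myelin and DMSO libraries of female KO microglia deviated together (r = 0.442, 0.214 and 0.117 over genes). Those of the other 3 kinds of microglia did not, all below 0.1. The main tests did not use this pairing. A block of the replicate number, shared by all 24 libraries and so not a pairing of female KO libraries alone, changed no call of Npy. Alternatives were DESeq2 1.42.0, limma-voom (limma 3.58.1), RLE scaling, no filter, covariates, other sets of libraries and leaving out each library.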

Additional observations from a re-analysis of the deposited data

Results flagged for a closer look

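Within groups of 4 to 10 hippocampal libraries, 4 of 60 combinations of gene and group had 1 library far from the rest, by the gap to its nearest neighbour over the whole range; chance alone marks about 5% of groups. Saline female 7 was highest in 3 of them. It measured 46.5 CPM for Bdnf with the next library at 29.5, 23.7 CPM for Nptx2 with the next at 15.99, and 18.3 CPM for Pdyn with the next at 12.3. Saline male 6 was lowest for Tac1, at 7.78 CPM with the next at 11.5.

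In the inhibitor experiment the response of females minus that of males was +1.45 on the log2 scale for Npy and +1.24 for Sst, by a test of the difference itself. In microglia the myelin response of Npy, KO minus WT in males, was −0.67, and its genotype difference with DMSO, females minus males, was −0.54. Both were flagged by an edgeR adjusted p under 0.05, from the KO and WT values for which Npy was included. That flag is therefore no support for them, and both are given as descriptions.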

How the results depend on the processing

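No result changed sign while called. With gardiquimod in males, the 1 call among the 10 genes became 0 with the 2 male groups alone and with striatal, astrocyte, mitochondrial-share or Ttr covariates, and was 0 to 1 when 1 library was left out. With the inhibitor in males, the 0 calls became 1 with DESeq2, 4 with the 2 male groups alone, 1 with those groups without the 3 libraries of lowest astrocyte markers and 1 with the mitochondrial covariate, and 0 to 1 with 1 library left out. In females they became 1 with the astrocyte and 3 with the mitochondrial covariate. For the response of females minus males, the 2 calls became 4 with DESeq2, 1 without the filter, 1 with the striatal and 1 with the astrocyte covariate. They became 5 with the mitochondrial covariate, 0 without both Xist-bearing males and 0 without the 3 libraries of lowest astrocyte markers. With 1 library left out they were 0 to 4. The fit of the youngest age held 1 inhibitor-treated female, so no count is given for it. Between control sexes, 0 became 1 with the mitochondrial covariate. Astrocyte and mitochondrial covariates and all settings without the 3 libraries were chosen after seeing the data. Some settings also hold fewer libraries, and the cause of these shifts was not tested. In microglia, the genotype difference of Npy with DMSO, females minus males, was −0.52 with Ttr and Pdgfra covariates; with 1 library left out it was −0.68 to −0.44. The count of pairs that passed in the agonist experiment was 12 without the 2 libraries farthest from the median (25 with all). In the inhibitor experiment it was 28 without TMM scaling (14 with it). Without the 3 libraries it was 14, and not all were the same pairs.

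Microglia libraries share replicate numbers, which exceeded a correlation of 0.1 in 3 of 12 same-numbered pairs of 1 sex and genotype, all 3 of them the female KO cultures. Across sex or genotype, 6 of 72 same-numbered pairs exceeded it, against 0 of 144 pairs of different number. With a replicate block the Npy myelin response, KO minus WT in males, was −0.68 and no Npy call changed. No paired analysis was possible because the hippocampal libraries carry no shared replicate numbers in their labels. Each of the 10 genes had at least 96 counts in every hippocampal library, and groups of 3 controls limit the inhibitor comparisons.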

Other observations

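The other 9 genes were mostly near absent in cultured microglia. Cck measured 14.3 to 53.3 CPM (218 to 991 counts) over the 24 libraries and Penk 24 to 67 counts, while the other 7 had 0 to 8 counts each. Male KO microglia carried 15 to 33 counts of Xist, against 0 to 2 in male WT microglia.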
